A study of Mus musculus with 8 samples.

Results

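Fxyd2 and the other measured genes of the sodium pump were followed in the hearts of female and male mice. The genes were chosen by symbol: Fxyd2, and every gene whose symbol begins with Fxyd, Atp1a or Atp1b. This gave 5 of the 6106 genes with a single symbol on the array: Fxyd2, Fxyd1 and Fxyd5 among the regulators, Atp1a4 among the alpha subunits and Atp1b3 among the beta subunits. Each had 1 probe, a value on all 8 arrays, and passed the filter on measured arrays. Fxyd2 was chosen because of its female over male ratio in these data, so its ratios are described here without a test. The other pump genes, 3 alpha subunits, 3 beta subunits and 4 FXYD regulators, had no row named with their symbol, so their ratios are unknown here.

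The sodium pump exports sodium and imports potassium at the expense of ATP, and in heart muscle it sets the gradients that the action potential and sodium-calcium exchange draw on. Its alpha subunit carries the ions and splits ATP, its beta subunit is needed for assembly and transport to the cell surface, and small membrane proteins of the FXYD family attach to the complex and tune its affinity for ions. Fxyd2 encodes the gamma subunit, best known from kidney tubules, where it modulates the pump; in humans, mutation of the gene causes urinary loss of magnesium. Phospholemman, encoded by Fxyd1, is the well-known FXYD protein of heart muscle and is regulated by kinases.

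The hearts came from C57BL/6 mice, a common inbred strain, with no treatment given in the labels. There were 4 pools, each of total RNA from 6 whole hearts: females and males at 8 months, and females and males at 2 months. Each two-colour array held the female and the male pool of 1 age, with 4 arrays per age. The female pool carried the dye Cy3 on replicates 1 and 3, and on replicates 2 and 4 it carried Cy5. The arrays of an age are technical repeats of 1 pair of pools, so an SD over arrays does not measure the spread between animals, which pooling leaves unknown. A ratio is log2 of the female over the male pool, so a positive value means more transcript in females. The value at an age is the mean over both dye orientations, which removes a constant dye effect. With whole hearts, more cells of a type and more RNA per cell cannot be told apart. Since the table holds ratios without intensities, neither the level of a gene nor the presence of heart markers could be read.

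The labels give the dye of each pool but not which dye is on top of the deposited ratio. It was read as Cy5 over Cy3, from Agilent's convention and from the sign of the sex-linked genes. Read so, Xist was above 0 on all 8 arrays and the Y-linked genes Kdm5d and Eif2s3y were below 0 on all 8. Since these genes helped to set the direction, their sign is no separate check of it, and every female over male value rests on this reading. Replicates 1 and 2 at 8 months stood apart. Their ratios drifted with the feature number (the position of a probe in the array's own order): the running median had an SD of 0.51 and 0.82 (log2), against 0.032 to 0.071 on the other arrays. For this reason 8-month values from replicates 3 and 4, which hold both dye orientations, are added. Each array's median ratio lay between -0.017 and 0.0081.

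Fxyd2 was higher in the female pool on every array, by 5.27-fold to 8.45-fold. At 8 months its log2 ratios were 2.94, 2.40, 2.58 and 2.55 on replicates 1 to 4. At 2 months they were 2.86, 3.08, 2.80 and 2.64. The ranges of the 2 ages overlapped. At 8 months both arrays with the female pool in Cy3 lay above both with it in Cy5, and at 2 months the dyes overlapped. The dye-balanced log2 ratio was 2.62 ± 0.23 (SD over 4 arrays) at 8 months, or 6.13-fold, and 2.85 ± 0.18 (SD over 4 arrays) at 2 months, or 7.19-fold. The difference of the ages, 8 minus 2 months, was -0.23, with no test across animals. Over both ages Fxyd2 was at 2.73, or 6.64-fold.

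**Figure D1:**
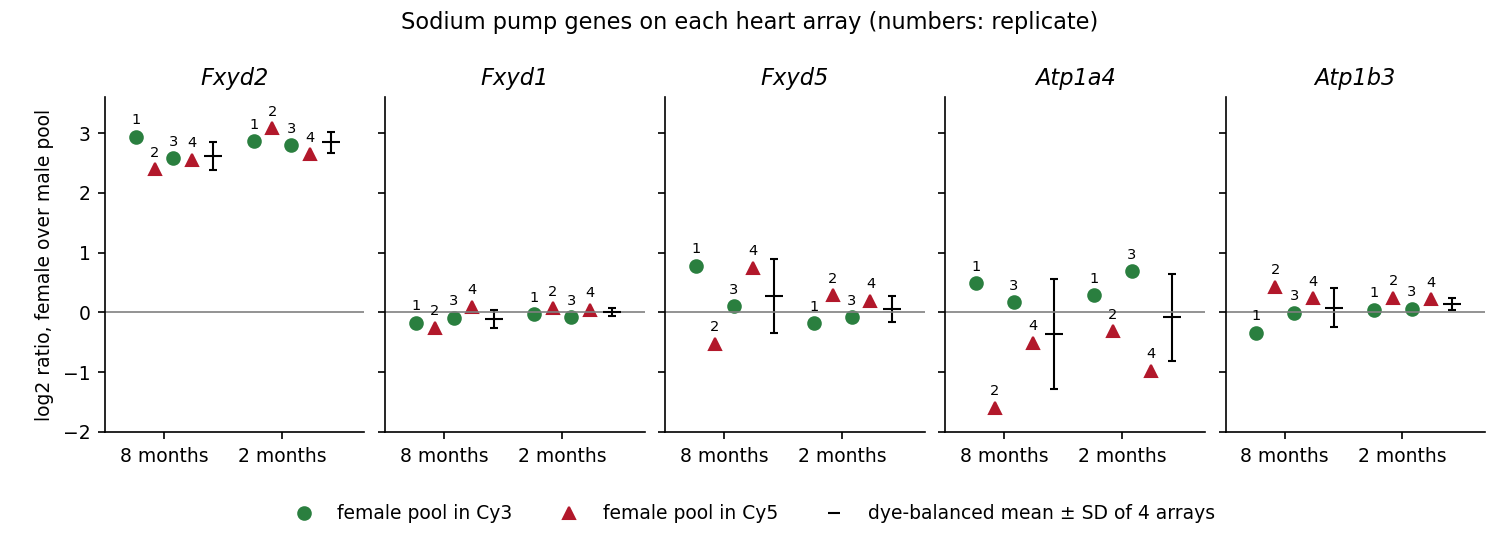
Log2 ratio of the female over the male pool on each array for the 5 sodium pump genes, with arrays grouped by age in months. Circles have the female pool in Cy3 and triangles in Cy5, small numbers give the replicate, and the bar beside each group is the dye-balanced mean ± SD of 4 arrays. Fxyd2 lies between 2.40 and 3.08 on all arrays, while the other genes scatter around 0 and Atp1a4 separates by dye.

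From replicates 3 and 4 alone, without the arrays that stood apart, the 8-month value of Fxyd2 was 2.56. On replicate 2 at 8 months, the lowest array of Fxyd2, the running median of the neighbouring probes was 0.51, and with it subtracted the ratio of that array was 1.88. On the other arrays the running median there was between -0.048 and 0.072.

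Among 7812 tested rows, Fxyd2 ranked number 7 from the top at 8 months, number 11 at 2 months and number 4 over both ages. Of the 7351 rows measured on all 8 arrays, 2 had every array at or above the lowest Fxyd2 array: Fxyd2 itself and a probe with no gene symbol. The SD of Fxyd2 over the 8 arrays was 0.23. Of the 52 rows among them that differed at least 2-fold over both ages, none had a smaller SD, and their median SD was 0.96. These ranks describe the pattern for which the gene was chosen.

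**Figure D2:**
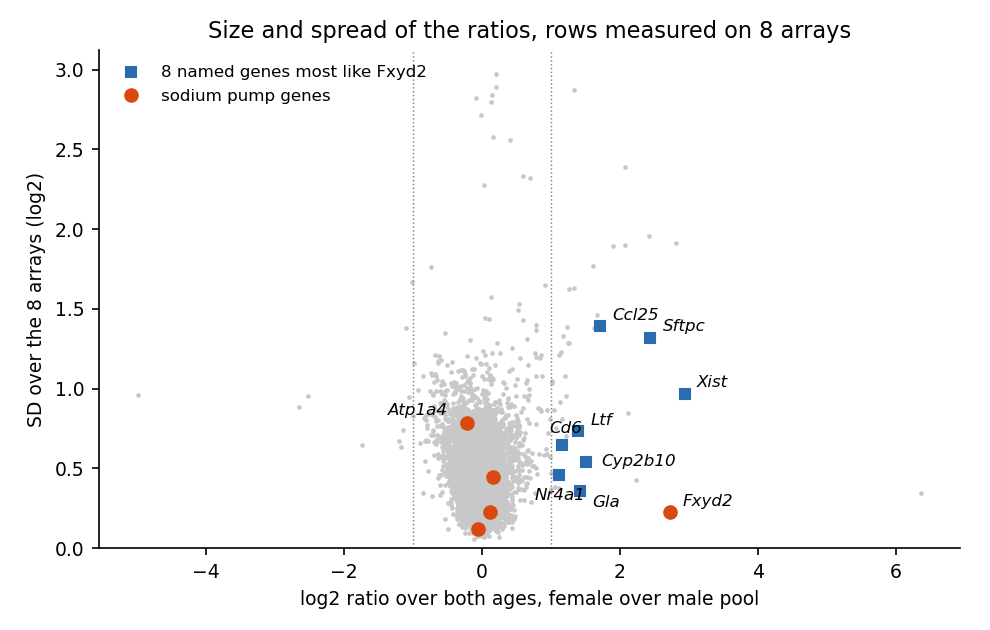
SD over the 8 arrays against the log2 ratio over both ages, female over male pool, for the rows measured on all 8 arrays. Orange circles are the 5 sodium pump genes, blue squares the 8 named genes nearest to Fxyd2, and dotted lines mark a 2-fold difference. Fxyd2 has the smallest SD, 0.23, among the 52 rows beyond the dotted lines.

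The other 4 measured genes of the pump had ratios near 0. None of them passed the test over both ages (limma over 2 pool pairs, Benjamini-Hochberg adjusted p below 0.05), and none had an unadjusted p below 0.05. Of all rows, 0.0896% were called with this test and 10.4% had an unadjusted p below 0.05. With 2 pool pairs the test could miss a real difference, so the 95% interval is given with each gene. The upper bounds of the 4 intervals were 0.12 to 0.49 and the lower bounds -0.56 to -0.16.

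Fxyd1, which encodes phospholemman, was close to equal in the pools. Its ratios at 8 months were -0.18, -0.26, -0.085 and 0.096 on replicates 1 to 4, with a dye-balanced value of -0.11 ± 0.15 (SD, n = 4 arrays), or 0.0055 from replicates 3 and 4. At 2 months they were -0.030, 0.067, -0.078 and 0.044, with a value of 0.00080 ± 0.067 (SD, n = 4 arrays). The arrays fell on both sides of 0 at both ages. At 2 months the sign followed the dye, above 0 with the female pool in Cy5 and below 0 with it in Cy3. Over both ages Fxyd1 was at -0.052 ± 0.13 (log2, SE; 95% interval -0.36 to 0.26; limma adjusted p = 0.936).

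Fxyd5 encodes dysadherin, a FXYD protein that also lowers adhesion between cells. Its ratios at 8 months were 0.78, -0.52, 0.10 and 0.74 on replicates 1 to 4, with a value of 0.28 ± 0.62, or 0.42 from replicates 3 and 4. At 2 months they were -0.18, 0.29, -0.081 and 0.19, with a value of 0.056 ± 0.22 (SD, n = 4 arrays at each age). The spread over arrays was larger than the value at both ages. At 2 months the arrays with the female pool in Cy5 were above 0 and those with it in Cy3 below 0. On replicates 1 and 2 at 8 months the running median of neighbouring probes was 0.54 and -0.97, so these arrays deviated from 0 in the direction of the drift. Over both ages Fxyd5 was at 0.17 ± 0.13 (SE; 95% interval -0.16 to 0.49; limma adjusted p = 0.753).

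Atp1a4, the alpha subunit known from sperm, followed the dye on every array. Its ratios were 0.48, -1.59, 0.17 and -0.51 on replicates 1 to 4 at 8 months, and at 2 months 0.29, -0.32, 0.69 and -0.97. The female pool was higher wherever it carried Cy3 and lower wherever it carried Cy5, so the deposited Cy5 over Cy3 ratio was below 0 on all 8 arrays. Its dye value, the log2 Cy5 over Cy3 ratio with the sex cancelled, was -0.69 at 8 months and -0.57 at 2 months. A dye value at least as large in size was found in 5.59% of rows at 8 months and 2.55% at 2 months, and 3.92% of the rows measured on 8 arrays had 1 sign of the deposited ratio throughout. On replicate 2 at 8 months the running median of the neighbouring probes was -1.13. With the dye cancelled, Atp1a4 was at -0.36 ± 0.92 at 8 months, or -0.17 from replicates 3 and 4, and at -0.077 ± 0.73 at 2 months (SD, n = 4 arrays each). Over both ages it was at -0.22 ± 0.14 (SE; 95% interval -0.56 to 0.12; limma adjusted p = 0.676). Single arrays moved this value: it was -0.084 without replicate 2 at 8 months, -0.35 without replicate 4 at 8 months and -0.14 without replicate 4 at 2 months. The 2-month value was above 0 without replicate 1, at 0.024, and without replicate 4, at 0.088.

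Atp1b3, a beta subunit, had arrays on both sides of 0 at 8 months and above 0 at 2 months. Its ratios at 8 months were -0.34, 0.43, -0.0028 and 0.24 on replicates 1 to 4, with a value of 0.080 ± 0.33, or 0.12 from replicates 3 and 4. At 2 months they were 0.049, 0.24, 0.059 and 0.22, with a value of 0.14 ± 0.10 (SD, n = 4 arrays at each age). At both ages the arrays with the female pool in Cy5 were the higher ones. On replicates 1 and 2 at 8 months the running median of neighbouring probes was -0.58 and 0.39. These arrays thus deviated from 0 in the direction of the drift. With the running median subtracted, the 8-month ratios were 0.24, 0.035, 0.032 and 0.28, all above 0, and the dyes overlapped. Over both ages Atp1b3 was at 0.11 ± 0.12 (SE; 95% interval -0.19 to 0.42; limma adjusted p = 0.826).

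**Figure D3:**
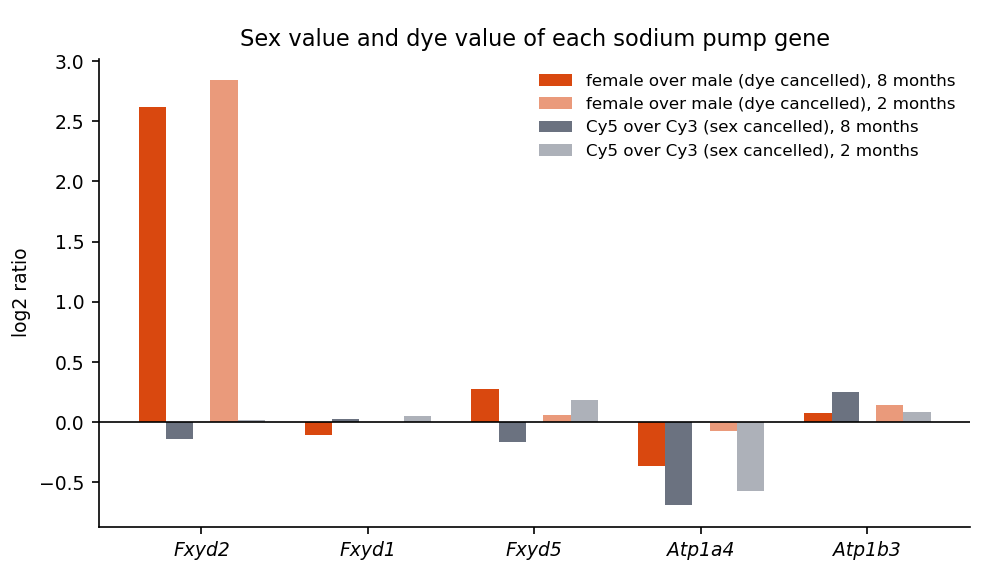
Log2 sex value (female over male, dye cancelled) and log2 dye value (Cy5 over Cy3, sex cancelled) of the 5 sodium pump genes at 8 and 2 months, as bars from 0. Fxyd2 has sex values of 2.62 and 2.85 and dye values of -0.14 and 0.015, while Atp1a4 has dye values of -0.69 and -0.57 and smaller sex values.

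By size, a row was listed at an age when it differed by 1.5-fold or more and its arrays of that age shared 1 sign. At both ages 1 of the 5 genes was listed, Fxyd2, beside 2.98% of all rows at 8 months and 4.17% at 2 months; the gene was chosen with these ratios. Without replicate 2 at 8 months Fxyd5 was listed too, at 0.59 or 1.51-fold, while without replicate 4 it was at -0.041. None of the 4 other genes had 1 sign on all 8 arrays, which 3.29% of the rows measured on 8 arrays had. At 2 months alone 1 of them had 1 sign on its 4 arrays, Atp1b3, which 36.1% of the same rows had. These signs were read with the drift left in. With the running median subtracted, Atp1b3 was above 0 on all 8 arrays, and the share of rows was not counted that way.

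Few named genes had ratios like those of Fxyd2. Likeness was taken as the root mean square difference from Fxyd2 in log2 ratio over the 8 arrays, among genes with a symbol. The nearest were Xist at 1.10, the cytochrome P450 gene Cyp2b10 at 1.31, the X-linked lysosomal gene Gla at 1.40, the surfactant gene Sftpc at 1.42 and the lactoferrin gene Ltf at 1.46. They were followed by the thymic chemokine gene Ccl25 at 1.61, the nuclear receptor gene Nr4a1 at 1.63 and the lymphocyte receptor gene Cd6 at 1.66. Xist, with 2 arrays inside the range of Fxyd2, had a log2 ratio of 3.45 ± 0.85 at 8 months and 2.44 ± 0.89 at 2 months. Ccl25 had 3 arrays inside that range and was at 0.52 ± 0.81 at 8 months, or 0.26 from replicates 3 and 4, against 2.91 ± 0.21 at 2 months (SD, n = 4 arrays each). Gla was at 1.61 ± 0.45 at 8 months and 1.23 ± 0.063 at 2 months, with no array inside the range of Fxyd2. These genes were picked for their ratios, and the likeness says nothing of a shared function.

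**Figure D4:**
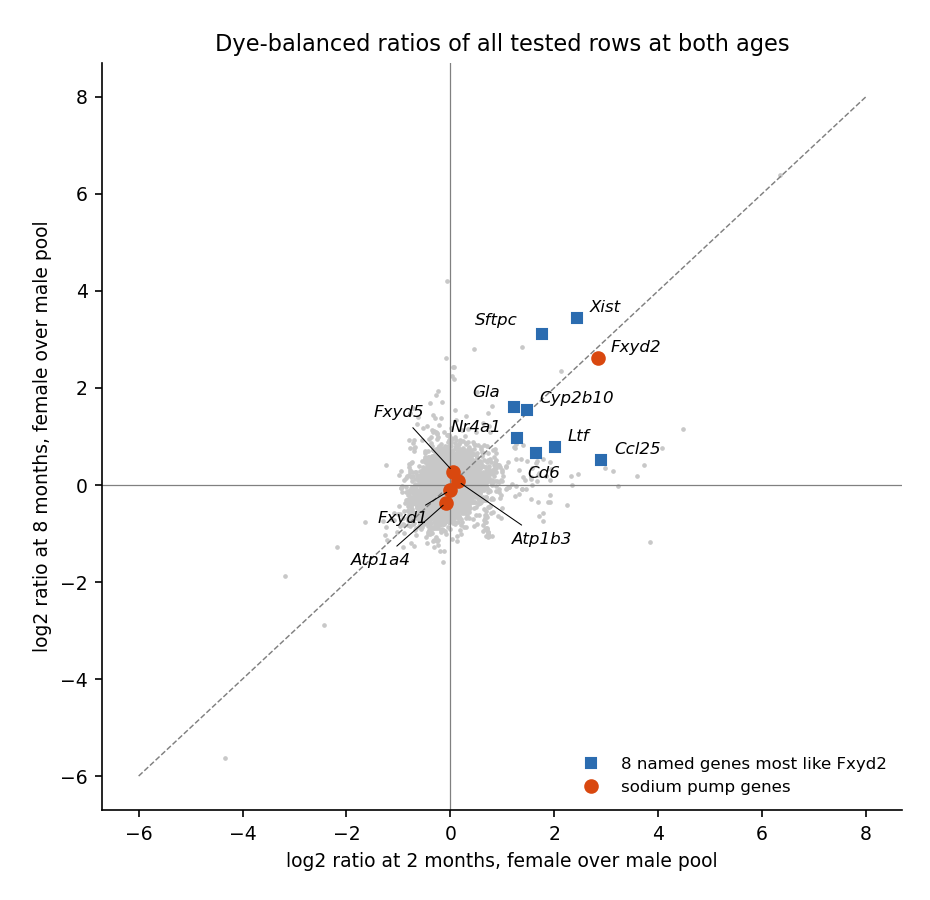
Dye-balanced log2 ratio at 8 months (vertical) and at 2 months (horizontal), female over male pool, for the 7812 tested rows (grey). Orange circles are the 5 sodium pump genes, blue squares the 8 named genes nearest to Fxyd2, and the dashed line marks equal ratios. Fxyd2, at 2.62 and 2.85, lies near the dashed line, while the other 4 sodium pump genes lie in the central cloud.

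Other P-type cation pumps, relatives of the sodium pump alpha subunit, had mostly small negative ratios. Of 17 listed genes 7 were tested, and none passed the test over all rows. An unadjusted limma p below 0.05 was found for 3, against 10.4% of all rows. Over both ages 6 of the 7 were below 0, with a median of -0.18 against -0.019 for all tested rows. Atp4a, the gastric proton pump, was at -0.53 ± 0.15 (log2, SE; limma adjusted p = 0.365) and Atp13a2, a lysosomal pump, at -0.51 ± 0.12 (SE; limma adjusted p = 0.321). These errors come from the limma fit to the 2 age means, which also draws on the variances of all rows. They do not measure the spread over arrays, which was far larger. Atp4a was at -0.30 ± 0.35 at 8 months and -0.75 ± 1.20 at 2 months (SD, n = 4 arrays each), with 2 of 4 arrays above 0 at 2 months. Atp13a2 was at -0.54 ± 0.86 at 8 months, or -0.16 from replicates 3 and 4, and -0.48 ± 1.08 at 2 months (SD, n = 4 arrays each), also with 2 of 4 arrays above 0 at 2 months. The calcium pump gene of fast skeletal muscle, Atp2a1, was at -0.37 and was below 0 on all 4 arrays at 2 months. Atp2a2, the calcium pump of the heart's sarcoplasmic reticulum, was at -0.18. At 8 months the median of these pumps was -0.30, and -0.052 from replicates 3 and 4.

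Genes of sodium entry and exchange were spread around 0. Of 35 listed, 10 were tested; none was called and none had an unadjusted limma p below 0.05, with 5 above and 5 below 0 and a median of -0.051. Slc9a3r1, a scaffold of the sodium-proton exchanger, was at 0.29 and Slc9a3, that exchanger, at 0.20, with 3 arrays measured at 2 months. The phosphate transporter gene Slc20a2 was at -0.24 and the potassium-chloride cotransporter gene Slc12a7 at -0.21. Slc9a3r1 was at -0.0063 ± 0.51 at 8 months and, with all arrays above 0, at 0.58 ± 0.17 at 2 months (SD, n = 4 arrays each).

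Of 25 listed potassium channel genes 7 were tested and none was called by limma, with a median of 0.063. An unadjusted limma p below 0.05 was found for 2, against 10.4% of all rows. Kcnn4, the calcium-activated potassium channel of lymphocytes and red cells, was listed by size as higher at both ages and was above 0 on all 8 arrays. Its ratio was 0.76 ± 0.60 at 8 months and 1.24 ± 0.054 at 2 months (SD over 4 arrays each); from replicates 3 and 4 the 8-month value was 0.53, under 1.5-fold. Over both ages it was at 1.00 ± 0.16 (SE; limma adjusted p = 0.193). Kcnk3, a background potassium channel, was at -0.39, Kcne1, an accessory channel subunit, at 0.25 and Abcc8, the sulfonylurea receptor, at 0.24. At 2 months Kcnk3 was at -0.36 ± 0.94 (SD, n = 4 arrays), with 2 of 4 arrays above 0. From replicates 3 and 4 at 8 months Kcnk3 was at -0.18.

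Kinases and hormone steps that act on the pump were mostly near 0. Of 23 listed 12 were tested and none was called by limma. An unadjusted limma p below 0.05 was found for 1, against 10.4% of all rows. Over both ages 4 were above and 8 below 0, with a median of -0.083. Prkaca, the catalytic subunit of protein kinase A, which phosphorylates phospholemman, was at -0.46 ± 0.13 (SE; limma adjusted p = 0.353), with array values from -1.25 to 0.26. Ppp1r1a, an inhibitor of protein phosphatase, was at 0.33, Sgk1, a hormone-induced kinase that raises sodium transport in kidney, at 0.23 and the tyrosine kinase gene Src at 0.22. Sgk1 was at 0.018 ± 0.46 at 8 months and 0.44 ± 0.060 at 2 months (SD, n = 4 arrays each).

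Markers of tissues in which Fxyd2 is known, or which a dissected heart could hold, were read beside it. Of 26 kidney tubule markers 10 were tested, with medians of 0.22 at 8 months, or 0.036 from replicates 3 and 4, and -0.0054 at 2 months. They ranged from -0.26 to 0.66 at 8 months and from -0.72 to 0.52 at 2 months. None was called by limma, and 3 had an unadjusted p below 0.05, against 10.4% of all rows. Kap, the androgen-regulated kidney protein, was at 0.40 over both ages, the transporter gene Slc22a8 at 0.40, the kallikrein gene Klk1 at 0.39 and the growth factor gene Egf at -0.49. From replicates 3 and 4 at 8 months Kap was at 0.077, Slc22a8 at 0.67 and Klk1 at 0.87. At 2 months Kap was at 0.52 ± 0.25, Slc22a8 at 0.25 ± 0.48 and Klk1 at 0.13 ± 0.34 (SD, n = 4 arrays each). Slc22a8 and Klk1 then had 2 of 4 arrays above 0, and Kap had all 4. By size 2 were listed at 2 months, beside 4.17% of all rows. Both were lower in females: Egf at -0.72 and Cdh16, the kidney cadherin, named here after its values were seen, at -0.61. The tubule marker Slc12a1 had too few values to be tested.

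Nerve, pancreas and muscle markers had list medians between -0.24 and 0.043 at 8 months and between -0.069 and 0.091 at 2 months. Their part in the result for Fxyd2 was not tested. The 6 tested neuron and glia markers had a median of -0.13 over both ages, with Nefm at -0.86, Nefl at -0.26, S100b at -0.24 and Uchl1 at 0.20; Nefm, a neurofilament gene, was listed by size as lower at 8 months, from 3 arrays. The 3 tested pancreas markers were Cela1 at 0.23, Sst at -0.12 and Iapp at 0.093. The 13 heart muscle markers had a median of -0.10, with Mb at -0.33, Tnnt2 at -0.33 and Myh6 at -0.32. At 2 months Mb was at 0.022, Tnnt2 at 0.0092 and Myh6 at -0.28. From replicates 3 and 4 at 8 months they were at -0.12, -0.21 and -0.20. Nppb, the natriuretic peptide precursor, was at 0.82 and was listed by size as higher at 8 months, at 1.55, or 1.15 from replicates 3 and 4. The 9 skeletal muscle markers had a median of -0.10, with Acta1 at -0.24, Myh1 at -0.18 and Casq1 at -0.13 beside Atp2a1. No gene of these lists passed the test. An unadjusted limma p below 0.05 was found for 1 neuron and glia marker, 0 pancreas markers, 2 heart muscle markers and 1 skeletal muscle marker. The share over all rows was 10.4%.

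Markers of thymus, airway and fat had list medians between -0.35 and 0.19 at 8 months and between 1.07 and 2.35 at 2 months. Fxyd2 was at 2.62 and 2.85. Single genes of these lists, Rag1 and Sftpc, were also listed by size as higher at both ages. These 3 lists were added after values had been seen, and their part in the result for Fxyd2 was not tested. The 11 tested thymus and T cell markers had a median of 0.19 at 8 months, or 0.28 from replicates 3 and 4, with a range from -0.31 to 1.15. At 2 months their median was 2.35, with 10 above 0 and a range from -0.24 to 4.48, and the recombinase gene Rag1 was the highest. Rag1 was above 0 on all arrays of both ages, at 1.15 ± 0.90 (SD, n = 4 arrays) at 8 months, or 1.14 from replicates 3 and 4. The 7 lung and airway markers had medians of -0.017 at 8 months, or 0.11 from replicates 3 and 4, and 1.07 at 2 months, although Sftpc was at 3.12 ± 1.65 at 8 months, or 3.89 from replicates 3 and 4, and 1.76 ± 0.31 at 2 months (SD, n = 4 arrays each). The 7 fat markers had medians of -0.35 at 8 months, or -0.063 from replicates 3 and 4, and 1.71 at 2 months, with the brown fat gene Ucp1 at 0.34 at 8 months and 2.99 at 2 months. Of the 25 tested genes of these lists, 1 was above Fxyd2 at 8 months, Sftpc, and 6 were above it at 2 months. None was called by limma. An unadjusted limma p below 0.05 was found for 7 thymus and T cell, 2 airway and 3 fat markers, against 10.4% of all rows. By size 10, 5 and 5 were listed as higher at 2 months, beside 4.17% of all rows. At 8 months 1, 1 and 0 were listed as higher, beside 2.98% of all rows.

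**Figure D5:**
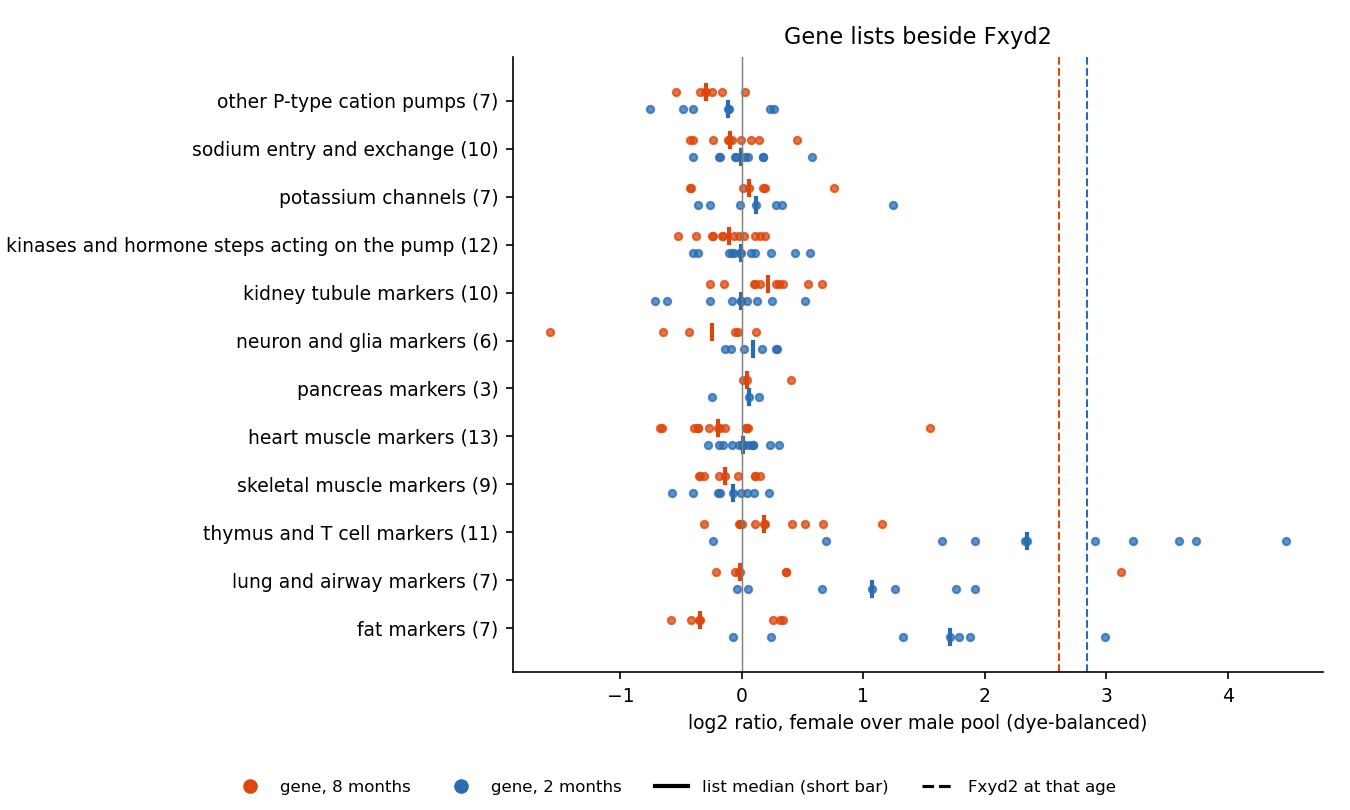
Dye-balanced log2 ratios, female over male pool, of the tested genes of each gene list at 8 months (orange) and 2 months (blue). Each dot is a gene, short bars are list medians, numbers in brackets give tested genes, and dashed lines mark Fxyd2 at each age. The thymus, airway and fat lists have medians of 0.19, -0.017 and -0.35 at 8 months and 2.35, 1.07 and 1.71 at 2 months, while Fxyd2 is at 2.62 and 2.85.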

How the data were processed

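The deposited table holds 1 ratio per probe and array, from images analysed with Agilent Feature Extraction 7.1.1, per the labels; further normalization, log base and direction are not stated there. The deposited values end at 2 and -2, as Agilent's log10 ratios do, and were read as log10 of Cy5 over Cy3. It has 9607 rows and gives no intensities, which leaves signal over background unknown. An exact 0 (6.38 to 13.9% of values per array) was treated as no measurement. Ratios were taken to log2 and turned by the dye of the female pool in the labels. The platform annotation named the probes, with symbols brought up to date by gene ID in the RefSeq table: 6671 rows had 1 symbol, 400 several and 2536 none, and rows of 1 symbol were averaged. A row was tested with at least 3 of 4 arrays and both dye orientations at each age, which left 7812.

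The 2 age means were fitted with limma 3.58.1 in R 4.3.3 (lmFit, eBayes, two-sided, Benjamini-Hochberg over all rows, n = 2 pool pairs, the arrays of an age counted as 1 replicate). The fit was also run on simulated data with equal changes at both ages and spread between arrays only. That run does not bear on spread between pools. The SE of a gene in the limma fit draws on the variances of all rows, not only on its own 2 age means. Named were all pump genes, the 8 genes nearest to Fxyd2, up to 4 per list by size over both ages, and the sex-linked genes. Members and lists were chosen with earlier results of these data known. Alternatives were the arrays used at 8 months, removal of the drift (running median over 301 rows), array scaling and centring, exact zeros kept, no filter, 1 probe per gene, and each array left out.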

Additional observations from a re-analysis of the deposited data

Results flagged for a closer look

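Dixon's test for a value far from the rest was applied to each age of the 59 genes considered for naming, in 116 groups of 4 arrays, and 4 arrays passed it; chance alone would give about 1 in 20. None belonged to a sodium pump gene. Prkaca at 8 months was at 0.19 on replicate 3, against -0.86 to -0.70 on the others. Mb at 8 months was at 0.68 on replicate 3, against -1.24 to -0.92. Egf at 2 months was at -0.52 on replicate 1, against -0.81 to -0.76. S100b at 2 months was at 0.31 on replicate 4, against 0.10 to 0.13.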

How the results depend on the processing

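In 15 alternatives, 128 of 132 values kept their direction, their side of the threshold and, where untested, stayed within 1 SD. Part of this count was fixed in advance, since each pump gene had 1 probe and a value on all 8 arrays. Exact zeros kept, no filter and 1 probe per gene therefore could not move the pump genes' ratios, only their limma p-values. Scaling all arrays to one spread moved Fxyd2 to 1.92 at 8 months and 2.43 over both ages, since it shrinks the wide replicates 1 and 2. From replicates 3 and 4 at 8 months, Fxyd1 over both ages was at 0.0031 instead of -0.052. Leaving out 1 array at 8 months gave 1 to 2 pump genes listed by size, with Fxyd5 added without replicate 2. Leaving out 1 array in turn gave 2.53 to 2.70 for Fxyd2 at 8 months, 2.74 to 2.95 at 2 months and 2.68 to 2.78 over both ages. Over both ages it gave -0.35 to -0.084 for Atp1a4, 0.069 to 0.15 for Atp1b3, -0.096 to -0.0083 for Fxyd1 and 0.0076 to 0.32 for Fxyd5, with each lowest and highest value from leaving out an 8-month array. None of the 4 other genes was called in any alternative, with limma adjusted p-values of 0.468 to 0.905 for Atp1a4, 0.527 to 0.942 for Atp1b3, 0.724 to 0.995 for Fxyd1 and 0.602 to 0.995 for Fxyd5. The count of rows called by limma was 7 of 7812, with 811 at an unadjusted p below 0.05. It was 1 from replicates 3 and 4, 4 with the drift removed or with no filter, 3 with arrays scaled, 0 with exact zeros kept (887 at an unadjusted p below 0.05), and 4 to 104 with 1 array left out, the highest without replicate 4 at 8 months and 100 without replicate 1. No paired analysis was possible because the arrays of an age repeat 1 pair of pools, so that the replicate number marks dye orientation and the fitted age means carry no number.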
